A study of Mus musculus with 4 samples.

Results

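The genes described here encode 6 cytokines that T cells secrete, namely Ifng, Il2, Il3, Csf2, Il10 and Tgfb1, and they were chosen by name as the rows of those genes in the deposited expression tables. All 6 were found among the 16338 rows of each table, and all 6 passed the filter on low values, which kept the 16100 genes whose normalized counts averaged 1 or more. The study sequenced RNA from mouse T cells with the T cell receptor (TCR) TRP1high or the TCR TRP1low that had been stimulated for 48 h by B cells carrying 1 of 2 peptides, named M9 and K8. TRP1, tyrosinase-related protein 1, is a pigment cell protein studied as a melanoma antigen. T cells were recovered from the co-culture by fluorescence-activated cell sorting, and the series is about how CD8 T cells respond to peptides with altered MHC class I binding. The groups were TRP1high with M9, TRP1high with K8, TRP1low with M9 and TRP1low with K8. The labels give no mouse strain, age or sorting gate, and do not say what high and low stand for.

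Each group held 1 library, so no difference here has a replicate check. Estimated reads numbered 41.5 M in TRP1high with M9, 40.5 M in TRP1high with K8, 40.3 M in TRP1low with M9 and 29.6 M in TRP1low with K8, and between 633 and 1205 genes were at 0, with the highest number in the last library. Values are log2(normalized count + 1) as deposited. A fold is a ratio of normalized counts with a 95% exact counting interval, which covers counting error only, as the labels mention no molecular identifiers. The 4 comparisons between libraries share libraries, so their values are given side by side and are not independent. In that order, 1 read was worth 0.989, 0.998, 1.05 and 1.37 normalized counts. The floor used for a gene at 0 was 3 reads per library. In bulk RNA, fewer cells that make a transcript and less transcript per cell cannot be told apart.

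When a TCR binds its peptide, calcium and kinase signals bring the transcription factors NFAT, AP-1 and NF-kB to cytokine genes, several of which, such as Il2, are almost silent in resting T cells. Interferon gamma (Ifng) activates macrophages and antigen presentation, and interleukin 2 (Il2) drives T cell growth. Interleukin 3 (Il3) and GM-CSF (Csf2) act on myeloid cells through receptors that share a beta chain. Interleukin 10 (Il10) and TGF-beta 1 (Tgfb1) restrain immune responses, and TGF-beta 1 is released in a latent form that must be activated.

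The stretch before the start of the gene is shown for the 4 cytokine genes that differed most with the TCR and peptide among those in the RefSeq promoter table (GRCm38.p6, the same assembly as mm10). Each line gives the 250 bases before the RefSeq start, 5′ to 3′ on the strand of the gene, with capitals marking GGAAA on either strand (the core letters bound by NFAT), TGANTCA (AP-1) or TATAAA on the gene's own strand (the TATA box).
Ifng, chr10:118440796-118441045, plus strand: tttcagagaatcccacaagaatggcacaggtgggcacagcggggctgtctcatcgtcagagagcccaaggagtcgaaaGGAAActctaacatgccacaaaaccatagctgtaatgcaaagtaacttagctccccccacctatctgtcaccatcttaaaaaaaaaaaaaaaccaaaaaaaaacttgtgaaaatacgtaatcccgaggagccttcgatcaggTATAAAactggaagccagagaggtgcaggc
Il2, chr3:37125955-37126204, minus strand: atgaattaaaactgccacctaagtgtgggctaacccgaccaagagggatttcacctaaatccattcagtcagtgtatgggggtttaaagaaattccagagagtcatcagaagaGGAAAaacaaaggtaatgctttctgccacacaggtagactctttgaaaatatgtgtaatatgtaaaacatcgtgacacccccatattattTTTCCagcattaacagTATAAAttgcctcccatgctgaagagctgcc
Il3, chr11:54267280-54267529, minus strand: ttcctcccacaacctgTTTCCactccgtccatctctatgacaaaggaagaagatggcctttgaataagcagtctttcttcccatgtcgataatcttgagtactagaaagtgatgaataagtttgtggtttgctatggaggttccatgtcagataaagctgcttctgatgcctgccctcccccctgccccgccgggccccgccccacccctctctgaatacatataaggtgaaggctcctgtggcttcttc
Csf2, chr11:54249900-54250149, minus strand: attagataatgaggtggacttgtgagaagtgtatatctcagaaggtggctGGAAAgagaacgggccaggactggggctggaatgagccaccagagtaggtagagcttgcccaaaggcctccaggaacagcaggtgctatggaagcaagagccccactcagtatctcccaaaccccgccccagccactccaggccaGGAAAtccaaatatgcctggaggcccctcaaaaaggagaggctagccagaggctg

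GGAAA was found in 4 of the 5 members in the table (Ifng, Il2, Il3 and Csf2), and in 55.6% of all 32851 promoters of this length. TATAAA stood 30 bases before the start in Ifng, at position -30, and at position -31 in Il2, and was found in 7.59% of all promoters. TGANTCA was found in 0 of the 5 members and in 6.75% of all promoters. For Csf2 the RefSeq start lies 232 bases before the GENCODE M21 start, so the window misses the bases next to the GENCODE start. Tgfb1 held none of the 3 motifs, and its window had a GC content of 75.2%, against 45.2% for Ifng, 40.4% for Il2, 50% for Il3, 55.2% for Csf2 and a median of 52.4% over all promoters. These letter matches are descriptions and do not show binding.

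Ifng and Tgfb1 were the abundant members and the other 4 were scarce, and in 4 of the 6 genes the lowest library was TRP1high with K8. Ifng (chromosome 10, 118441046 to 118445892, mm10) stood at log2 12.74 in TRP1high with M9 and 9.70 in TRP1high with K8, and at 13.76 in TRP1low with M9 and 12.89 in TRP1low with K8. These are 6839, 829, 13898 and 7609.8 normalized counts. Both TRP1high libraries were below both TRP1low libraries, as for 25.1% of all genes tested, and the K8 library of TRP1high stood far below the other 3.

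Il2 (chromosome 3, 37120523 to 37125959) stood at log2 7.30 in TRP1high with M9 and 2.81 in TRP1high with K8, and at 6.61 in TRP1low with M9 and 6.03 in TRP1low with K8. The reads behind these values were 158 and 6, and 92 and 47. The K8 library of TRP1high was again the low one, and the M9 library of TRP1high was the highest. Both M9 libraries were above both K8 libraries, as for 16.8% of all genes tested.

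Il3 (chromosome 11, 54265303 to 54267277) stood at log2 7.39 with 168 reads in TRP1high with M9, and had 0 reads in TRP1high with K8. In TRP1low it stood at 6.09 with 64 reads with M9 and at 4.33 with 14 reads with K8. As for Il2, the M9 libraries were both above the K8 libraries.

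Csf2 (chromosome 11, 54247271 to 54249667) had another order, with its highest value in TRP1low with K8. It stood at log2 3.89 with 14 reads in TRP1high with M9 and 1.998 with 3 reads in TRP1high with K8, and at 4.53 with 21 reads in TRP1low with M9 and 6.64 with 72 reads in TRP1low with K8. Both TRP1high libraries were below both TRP1low libraries.

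Il10 (chromosome 1, 131019845 to 131024974) stood at log2 0.99 with 1 read in TRP1high with M9, which was the low library. In TRP1high with K8 it stood at 4.52 with 22 reads, in TRP1low with M9 at 4.39 with 19 reads and in TRP1low with K8 at 5.30 with 28 reads. The counting intervals of the first 2 of these 3 overlap over most of their width, at 13.8 to 33.2 and 11.998 to 31.1 normalized counts, and that of TRP1low with K8 runs from 25.4 to 55.3. Both M9 libraries were below both K8 libraries, as for 15.7% of all genes tested.

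Tgfb1 (chromosome 7, 25687002 to 25705077) varied least of the 6. It stood at log2 13.07 in TRP1high with M9 and 12.61 in TRP1high with K8, and at 12.36 in TRP1low with M9 and 11.39 in TRP1low with K8. Both TRP1high libraries were above both TRP1low libraries, as for 22.7% of all genes tested. Counted over the 6 members, the TCR groups did not overlap for 3, against 47.8% of all genes, and the peptide groups for 3, against 32.5%. The log2 range over the 4 libraries was 1.67 for Tgfb1, against 4.07 for Ifng, 4.30 for Il10, 4.49 for Il2, 4.64 for Csf2 and 7.39 for Il3. The median range over all genes tested was 0.93.

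**Figure D1:**
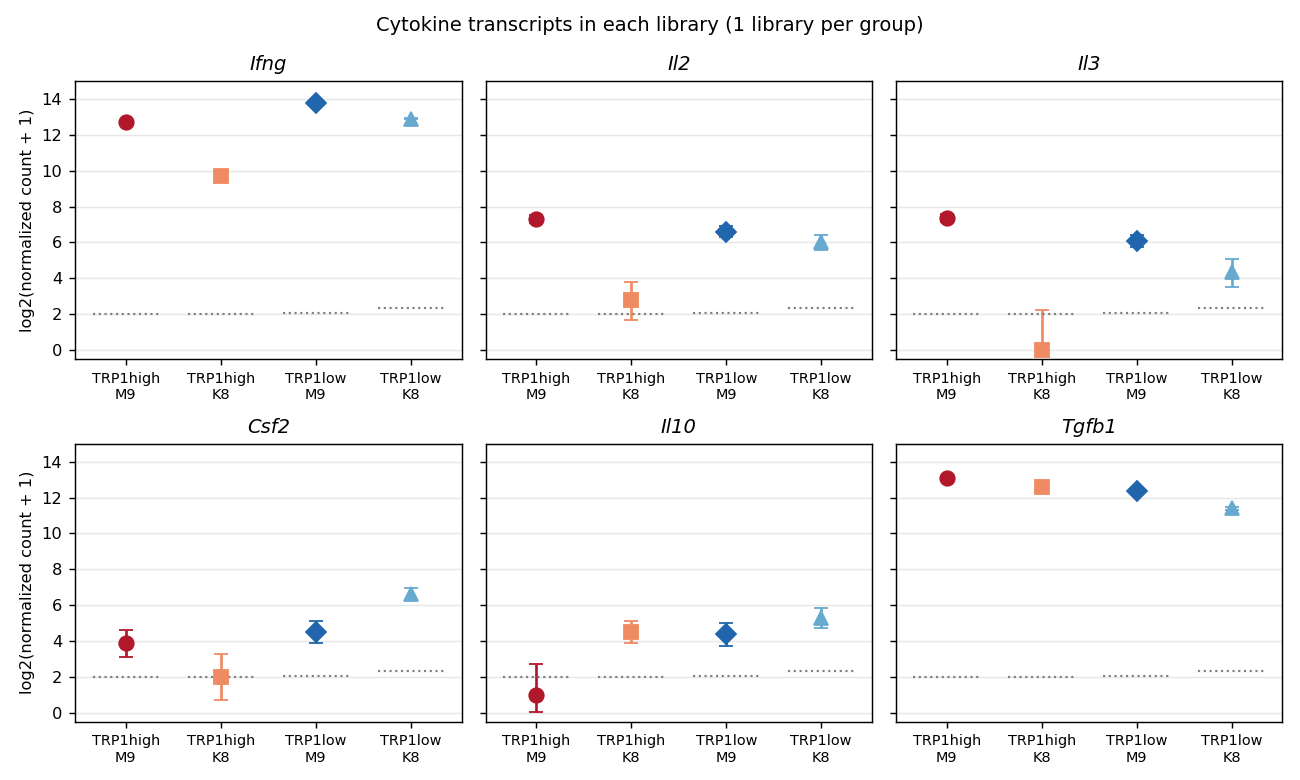
Log2(normalized count + 1) of each cytokine gene in the 4 libraries, 1 library per group, with bars for 95% exact counting intervals and dotted lines for the floor of 3 reads. Ifng, Il2, Il3 and Csf2 have their lowest point in TRP1high with K8, and Il10 has its lowest point (1 read) in TRP1high with M9.

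Per kilobase of annotated exon, Ifng led in 3 of the 4 libraries and Tgfb1 led in TRP1high with K8. Ifng had 5281 normalized counts per kb in TRP1high with M9 and 640 in TRP1high with K8, and 10732 in TRP1low with M9 and 5876 in TRP1low with K8. Tgfb1 had 1701, 1242, 1045 and 534 per kb in the same libraries and order. With M9 the order after these was Il3, Il2, Csf2 and Il10 in both TCRs, at 264, 137, 17.3 and 0.755 per kb in TRP1high and 107, 84.3, 27.5 and 15.2 per kb in TRP1low. In TRP1low with M9 the counting intervals of Il3 and Il2 overlap, as do those of Csf2 and Il10. With K8 the order was Il10, Il2, Csf2 and Il3 in TRP1high, at 16.8, 5.24, 3.74 and 0 per kb, where the first 3 have overlapping intervals and that of Il3 overlaps those of Il2 and Csf2. In TRP1low with K8 it was Csf2 at 123, Il2 at 56.2, Il3 at 30.4 and Il10 at 29.2 per kb, and the intervals of the last 3 overlap one another.

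Transcripts of the labelled cell type were abundant: the 13 CD8 T cell markers had median log2 levels of 13.82, 13.37, 13.42 and 13.00 in TRP1high with M9, TRP1high with K8, TRP1low with M9 and TRP1low with K8, and Cd8a stood at 14.80, 14.33, 14.82 and 15.14. Cd4 stood at 0, 1.64, 4.27 and 4.73. In the same order, the 24 B cell markers summed to 2161, 5557, 2165 and 4479.6 normalized counts, with median log2 levels of 2.99, 7.10, 4.68 and 6.27, and 5, 0, 2 and 0 of them were at 0. Among those at 0 in TRP1high with M9 were Pax5, Cr2, Fcrla and Ciita, of which Cr2 and Ciita were also at 0 in TRP1low with M9. H2-Ab1 was highest in TRP1high with M9, at log2 9.40 against 8.75, 7.74 and 7.74 in the other libraries. For M9 against K8, 0 of the 24 were called higher and 21 lower in TRP1high, and 3 higher and 12 lower in TRP1low. Over all genes tested, 5.14% were called higher and 4.73% lower in TRP1high, and 7.67% and 7.43% in TRP1low. For TRP1high against TRP1low, 2 were called higher and 13 lower with M9, and 12 higher and 2 lower with K8. Over all genes these shares were 7.37% and 5.58% with M9, and 10.6% and 8.35% with K8. Il10, which B cells also make, was lowest in the library with the lowest B cell marker median. It was highest in TRP1low with K8, while the marker median and sum were highest in TRP1high with K8. The M9 libraries had marker sums of 2161 in TRP1high and 2165 in TRP1low, with 1 and 19 Il10 reads. Blk, a B cell marker, was among the nearest genes to Il10, after Ptger3. The part of B cell transcript in the Il10 values was not tested.

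Myeloid and dendritic cell markers (12 of 20 measured) summed to 1139, 1294, 366 and 710.5 normalized counts with median log2 levels of 1.57, 2.29, 2.51 and 4.81. Their median was highest in TRP1low with K8, the library with the most Csf2 and the most Il10, while their sum was highest in TRP1high with K8. The largest marker in every library was Ly6c2, at log2 9.58, 10.05, 7.69 and 7.86, and the sums ranked the libraries in the same order as Ly6c2. The part of these cells in the Csf2 and Il10 values was not tested. Of 5 measured mast cell and basophil markers, which belong to cells that also make interleukin 3 and GM-CSF, the median log2 levels were 3.31, 3.46, 2.87 and 3.02. Their sums were 68.7, 99.3, 36.7 and 1017 normalized counts, and Kit alone, at log2 5.28, 5.89, 3.68 and 9.95, made up nearly all of the sum in TRP1low with K8, the library with the most Csf2. Cpa3 was at 0 in the first 3 libraries and stood at 3.02 in the last. Ms4a2 was lowest in that library at 2.35, against 3.31, 3.17 and 2.87 in the others, Prss34 was at 0 in all but TRP1high with K8 (3.46), and Hdc stood between 4.29 and 4.58. The part of these cells in the Csf2 and Il3 values was not tested. Plasma cell markers had medians of 5.60, 7.94, 6.21 and 6.45. This median was the Prdm1 value in the first 3 libraries and the Mzb1 value in the last. Mzb1 stood at 0.99, 5.90, 1.03 and 6.45, and Jchain at 2.61, 4.99, 1.06 and 5.64. Mzb1, Jchain and Prdm1 were lower with M9 in both TCRs, Sdc1, Irf4 and Derl3 were higher in both, and Xbp1 was lower in TRP1high only. CD4 and regulatory T cell markers, several of which activated CD8 T cells also express, had medians of 6.73, 5.77, 6.61 and 4.73, and gamma delta T and NK cell markers 7.28, 9.62, 3.44 and 4.62. In this last list, Tcrg-C1, Tcrg-C2 and Tcrg-C4 were higher in both TRP1high libraries than in both TRP1low libraries. Trdc and Sox13 were lower in both, and for Klrb1c, Nkg7 and Eomes the TCR groups overlapped. With M9, Tcrg-C4 stood at 7.83 in TRP1high and 1.63 in TRP1low, and Trdc at 8.86 and 9.64. Which cells these transcripts came from was not tested.

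**Figure D2:**
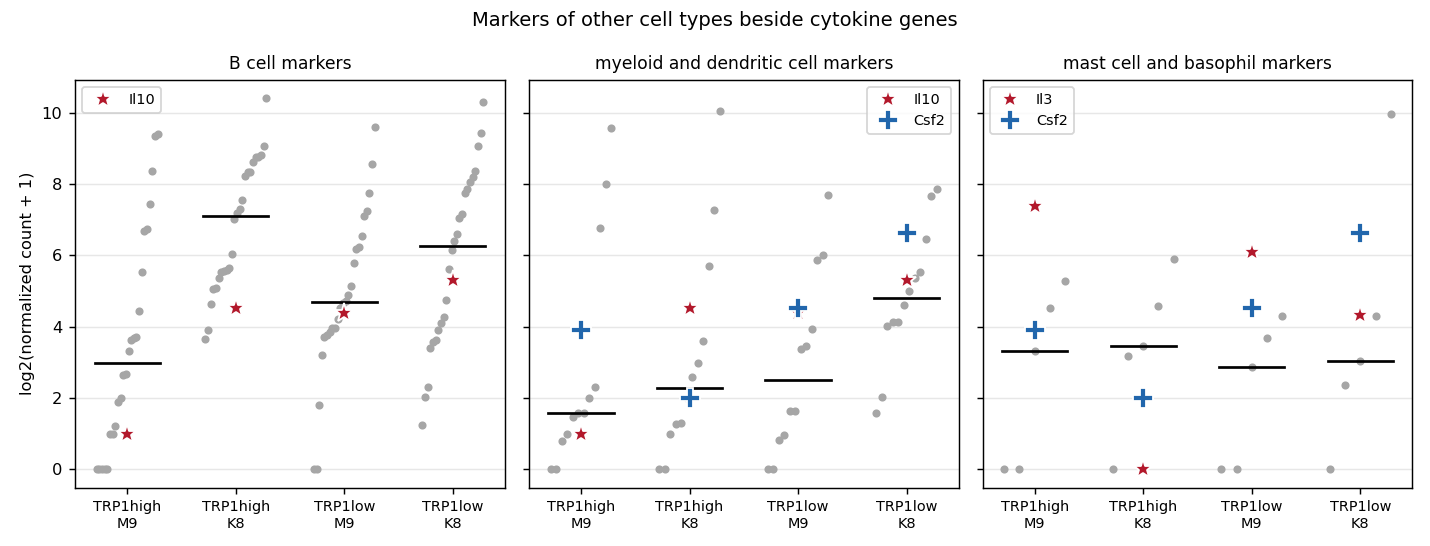
Log2(normalized count + 1) of marker genes of B cells, myeloid and dendritic cells, and mast cells and basophils in each library (grey points, with black lines at the median), with Il10, Csf2 or Il3 as coloured symbols. Il10 and the B cell marker median (2.99) are both lowest in TRP1high with M9. Il10 is highest in TRP1low with K8, and the B cell marker median in TRP1high with K8 (7.10). The mast cell and basophil marker median is 3.02 in TRP1low with K8, where Csf2 is highest, against 3.31, 3.46 and 2.87 in the other libraries.

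The first comparison asks how the cytokine transcripts differed between stimulation with M9 and with K8 in TRP1high cells. The M9 library held more Ifng, Il2, Il3 and Csf2 and less Il10, while Tgfb1 was less than 2-fold apart. A gene was called where the pair was 2-fold or more apart and either library reached 10 normalized counts. That held for 5 of the 6 members, against 9.87% of the 16100 genes. Of the members, 4 were higher with M9, against 5.14% of all genes, and 1 was lower, against 4.73%. The median log2 difference of the members was 2.47, against -0.02 over all genes.

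Ifng was 8.25-fold higher with M9 (7.68 to 8.88) and Il2 was 26.1-fold higher (11.7 to 72.2). Il3, with 168 reads against 0, was 55.5-fold higher with the 0 in the K8 library raised to the floor of 3 reads. Its counting interval starts at 44.7-fold higher. The log2 differences of Ifng and Il2, 3.04 and 4.49, exceeded in size those of 98.1% and 99.6% of all genes. That of Il3, 7.39, depends on the 1 added before the logarithm, and it was 5.10 with 5 added and 5.79 with values under 3 reads raised to 3 reads. Csf2 was 4.63-fold higher on 14 reads with M9 and 3 with K8, and its interval is wide (1.29 to 25.1). With 5 added before the logarithm, its log2 difference was 1.24, against 1.89. Il10 was lower with M9, at a ratio of 0.0451 (0.0011 to 0.279) from 1 read against 22, and its log2 difference of -3.53 was -2.17 with 5 added. Tgfb1 was 1.37-fold higher (1.33 to 1.41).

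In TRP1low cells the same comparison gave smaller differences for Ifng, Il2 and Il3, and Csf2 went the other way. Of the 6 members, 2 were at least 2-fold apart, against 15.1% of all genes. Higher with M9 was 1 member, Il3, against 7.67%, and lower was 1, Csf2, against 7.43%. The members' median log2 difference was 0.72, against 0.02 over all genes. Il3 was 3.51-fold higher with M9 (1.95 to 6.77) and Csf2 had a ratio of 0.224 (0.131 to 0.368). Ifng was 1.83-fold higher (1.77 to 1.88), Il2 1.501-fold higher (1.05 to 2.18) and Tgfb1 1.96-fold higher (1.86 to 2.06), all under the 2-fold limit. Il10 had a ratio of 0.520 (0.275 to 0.965), also short of it. In both TCRs the M9 library thus held more than 2-fold more Il3, which was true of no other member.

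**Figure D3:**
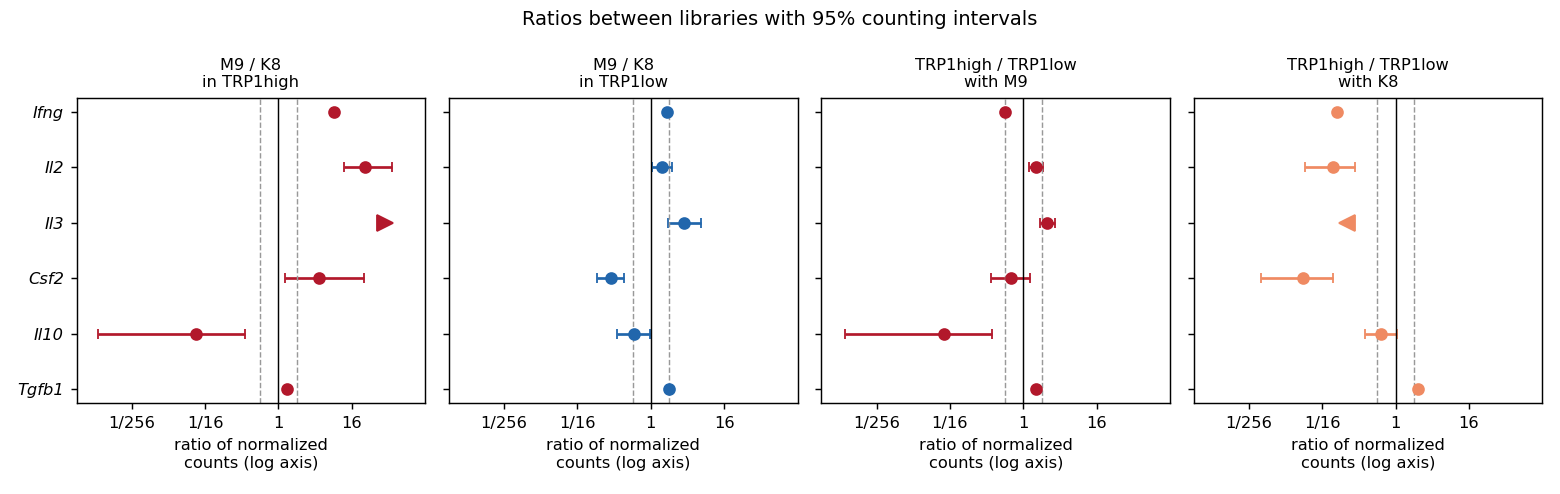
Ratio of normalized counts between 2 libraries for each cytokine gene on a log axis, with bars for 95% exact counting intervals, dashed lines at 2-fold and triangles for bounds where Il3 had 0 reads in 1 library. In TRP1high, Ifng, Il2 and Il3 lie right of the 2-fold line with M9, and in the comparison of TCRs with K8, Ifng, Il2, Il3 and Csf2 all lie left of it.

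The TCRs were compared with each peptide in turn. With M9, the TRP1high and TRP1low libraries were within 2-fold for 3 of the 6 members, and 3 were at least 2-fold apart, against 13.0% of all genes. Il3 was 2.48-fold higher in TRP1high (1.85 to 3.36), and 7.37% of all genes were called higher. Lower in TRP1high were 2 members, against 5.58% of all genes. These were Il10, at a ratio of 0.0497 (0.0012 to 0.312) from 1 read against 19 and a log2 difference of -3.39 that was -2.06 with 5 added, and Ifng, at a ratio of 0.492 (0.478 to 0.507). The Ifng difference of -1.02 sits at the limit, and it was -0.97 after scaling by the median ratio and -0.98 after scaling to equal totals, which end its call. Il2 was 1.62-fold higher (1.25 to 2.12), Tgfb1 1.63-fold higher (1.57 to 1.69), and Csf2 had a ratio of 0.629 whose interval holds 1 (0.296 to 1.297). The members' median log2 difference was 0.03, against -0.03 over all genes.

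With K8, the TRP1high library held far less Ifng, Il2, Il3 and Csf2 than the TRP1low library and more Tgfb1. Lower in TRP1high were 4 of the 6 members, against 8.35% of all genes, and 1 was higher, against 10.6%, so that 5 were at least 2-fold apart, against 18.9%. Ifng had a ratio of 0.109 (0.101 to 0.117), which is 9.18-fold lower, and Il2 had a ratio of 0.0932 (0.0325 to 0.218), 10.7-fold lower. Il3 had 0 reads against 14, and was 6.39-fold lower with the 0 raised to the floor of 3 reads. Its counting interval starts at 4.55-fold lower. The Il3 log2 difference of -4.33 was -2.27 with 5 added and -2.68 with the floor of 3 reads. Csf2 was 32.9-fold lower (10.8 to 163) on 3 reads against 72. Tgfb1 was 2.33-fold higher (2.21 to 2.45), and Il10 had a ratio of 0.573 whose interval holds 1 (0.313 to 1.04). The members' median log2 difference was -3.21, against 0.00 over all genes.

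**Figure D4:**
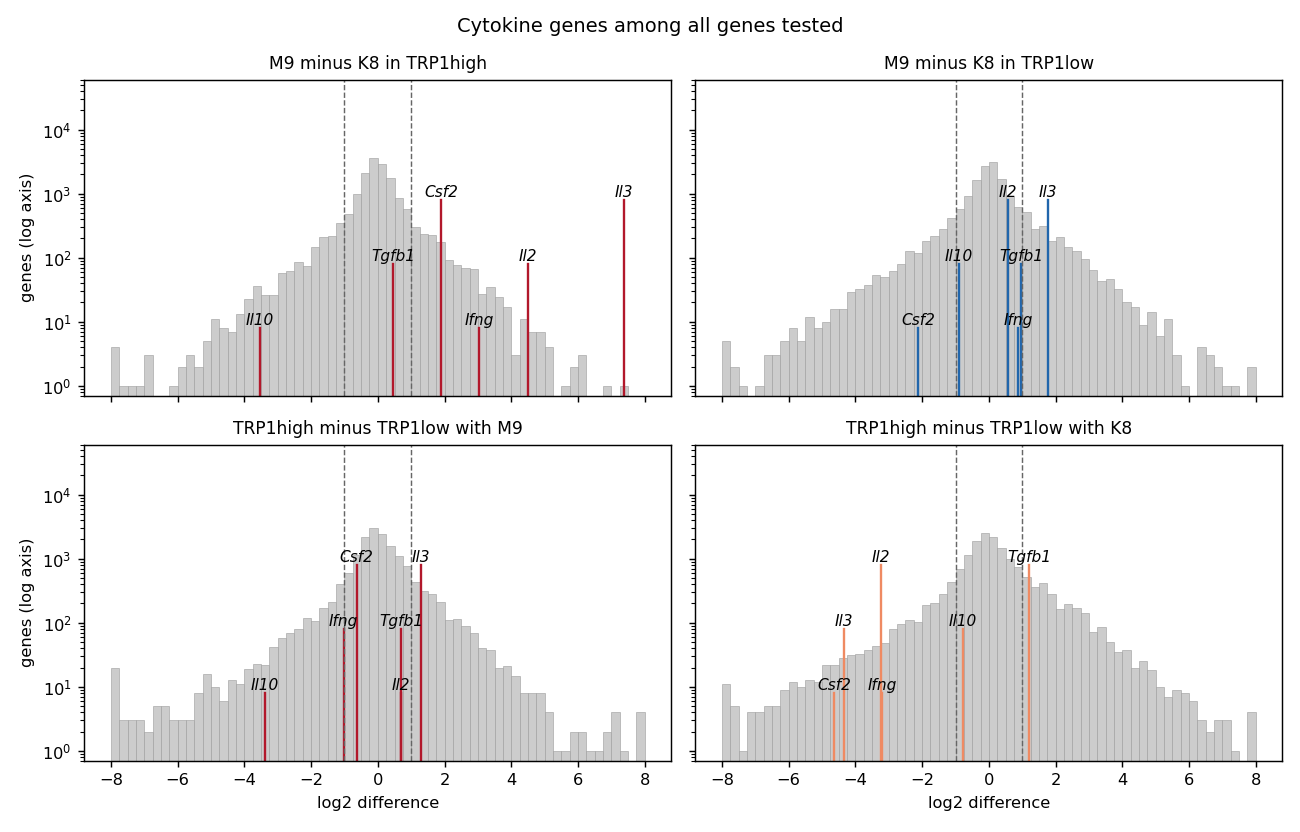
Histograms of the log2 difference of all 16100 genes tested in each comparison, with a log count axis, values beyond 8 drawn at 8 and dashed lines at 2-fold. Coloured lines mark the 6 cytokine genes: in M9 minus K8 in TRP1high, Il3 (7.39) and Il2 (4.49) lie in the far right tail, and in TRP1high minus TRP1low with K8, Csf2 (-4.64) and Il3 (-4.33) lie on the left.

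The peptide difference in TRP1high minus that in TRP1low was at least 1 in size on the log2 scale for 5 of the 6 members, against 18.8% of all genes. It was positive in 4 of them, against 9.07% of all genes, and negative in 1, against 9.68%. It was 5.63 for Il3, 4.01 for Csf2, 3.91 for Il2 and 2.17 for Ifng, and it was -2.62 for Il10 and -0.52 for Tgfb1. With values under 3 reads raised to 3 reads and no added 1, it was 3.99 for Il3 and -1.94 for Il10, and with 5 added to each value before the logarithm it was 3.52 for Il3 and -1.37 for Il10. With 1 library per group no residual was left to test these differences.

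An additive model of TCR and peptide was fitted to all genes with limma, which left 1 residual degree of freedom, the disagreement between 2 pairs of libraries. It called 0 of 16100 genes (0%) in either comparison at a Benjamini-Hochberg adjusted p under 0.05, with 1342 genes at an unadjusted p under 0.05 for the peptide and 2043 for the TCR. The peptide effect was 1.96 (SE 0.73, limma adjusted p = 0.62) for Ifng, 2.54 (SE 1.28, 0.67) for Il2 and 4.57 (SE 1.82, 0.64) for Il3. For Il10 it was -2.22 (SE 0.87) and for Tgfb1 0.71 (SE 0.25), with limma adjusted p of 0.63 and 0.62, and for Csf2 it was -0.11 (SE 1.31, 0.98). The TCR effect of Tgfb1, 0.96 (SE 0.25), had an unadjusted limma p of 0.046 and an adjusted p of 0.39, and the TCR effects of the other members ran from -2.64 for Csf2 to -1.27 for Il2 with limma adjusted p from 0.41 to 0.70. These p-values do not measure the spread between cultures.

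Receptor chains for the 6 cytokines were measured for 13 of 14 listed genes, and Csf2rb was not analysed here. For M9 against K8, 5.14% of all genes were called higher and 4.73% lower in TRP1high, and 7.67% and 7.43% in TRP1low. For TRP1high against TRP1low, these shares were 7.37% and 5.58% with M9, and 10.6% and 8.35% with K8. The median over all genes lay between -0.03 and 0.02 in every comparison, which also applies to the lists below. In TRP1high, 2 chains were called higher in the M9 library (Csf2ra, the GM-CSF receptor alpha chain, log2 difference 1.36, and Il3ra, the interleukin 3 receptor alpha chain, 1.17). The 1 lower chain was Ifngr1, the ligand-binding chain of the interferon gamma receptor (-1.15). In TRP1low, Il2ra, the high-affinity interleukin 2 receptor chain, was 2.25 higher with M9 and Csf2ra 1.01 higher, while Tgfbr2, a TGF-beta receptor, was lower (-1.14), as was Csf2rb2, a beta chain specific to interleukin 3 in mice, on 2 reads against 10. For the whole list the median was -0.43 in TRP1high, and it was -0.62 in TRP1low. Between TCRs, Ifngr2 was 1.26 higher in TRP1high with M9 as the 1 member called, and with K8 Il2ra was 2.81 higher and Csf2rb2 was lower (-1.88). The medians were -0.04 with M9 and -0.05 with K8.

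Among 33 transcription factors known to act on cytokine genes, the M9 library of TRP1high held 10 called higher and 4 called lower, and that of TRP1low 6 and 2. Over all genes, the shares called higher and lower were 5.14% and 4.73% in TRP1high, and 7.67% and 7.43% in TRP1low. Fosl2, an AP-1 subunit, was higher with M9 in both, by 2.34 in TRP1high and 1.83 in TRP1low, and Fos, another AP-1 subunit, was 1.83 higher in TRP1high. Crem, a cyclic AMP response factor that limits Il2 transcription, was 2.56 higher with M9 in TRP1low and 1.13 higher in TRP1high. Prdm1 (Blimp-1, a repressor of Il2) and Maf (an activator of Il10) were lower with M9 in TRP1high, with differences of -2.34 and -1.76, Maf on few reads. Gata3, the factor of type 2 cytokines, and Runx1 were lower with M9 in TRP1low, at -2.16 and -1.44, and Runx1 was also lower in TRP1high (-1.31). Medians were 0.14 and 0.40. In TRP1high against TRP1low, 3 factors were higher and 1 lower with M9, and 11 were higher and 3 lower with K8. The shares of all genes were 7.37% and 5.58% with M9, and 10.6% and 8.35% with K8. With M9, Fosl2 was 1.75, Runx3 1.09 and Nfil3 1.06 higher in TRP1high, and Eomes, a T-box factor of Ifng, was lower (-1.31). With K8, Nfil3 was 2.67 higher in TRP1high and Maf was higher against 0 reads, while Fos (-1.62) and Gata3 (-1.10) were lower, and the medians were 0.47 with M9 and 0.24 with K8.

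Regulators of the decay or translation of cytokine mRNA, 12 in number, included 1 called higher with M9 in TRP1high, 2 in TRP1low and 0 called lower in either. Of all genes, 5.14% were called higher in TRP1high and 7.67% in TRP1low, and 4.73% and 7.43% were called lower. Zc3h12d, a relative of the cytokine mRNA endonuclease Regnase-1, was higher with M9 in both, by 1.48 and 1.36, and Arid5a, which stabilizes cytokine mRNAs, was 1.58 higher in TRP1low. Medians were 0.07 and 0.19. In TRP1high against TRP1low, 3 of the 12 were higher and 0 lower with either peptide, with medians of 0.36 with M9 and 0.58 with K8. The shares of all genes called higher were 7.37% with M9 and 10.6% with K8, and those called lower 5.58% and 8.35%. The 3 were the same with both peptides. Khsrp, a decay factor for AU-rich mRNAs, was 1.39 higher in TRP1high with M9 and 1.95 with K8. Arid5a was 1.26 higher with M9 and 2.46 with K8, and Zc3h12d 1.48 and 1.37.

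Genes known to respond to interferon gamma were measured for 24 of 25 listed. With M9 in TRP1high, where Ifng was 8.25-fold higher, 0 of them were called higher and 2 lower, namely Ciita, which is also a B cell marker, and the chemokine Cxcl9, at 0 and 1 read against 14 and 26 with K8. In TRP1low, 2 were higher (the GTPases Iigp1, 1.78, and Gbp5, 1.03) and 3 lower, among them the chemokines Cxcl10 (-4.10) and Cxcl11. The list's medians were -0.07 and -0.09. Over all genes, 5.14% were called higher and 4.73% lower in TRP1high, and 7.67% and 7.43% in TRP1low. With K8, 7 were called higher and 3 lower in TRP1high against TRP1low, at a median of 0.15. With M9, 2 were higher in TRP1high (Gbp7, 1.1001, and Gbp6, 1.01) and 0 lower, at a median of 0.20. Of all genes, 10.6% were called higher and 8.35% lower between TCRs with K8, and 7.37% and 5.58% with M9.

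The 13 interleukin 2 and STAT5 response genes, a list that also holds Il10, had 0 called higher and 3 lower for M9 against K8 in TRP1high, at a median of -0.12. For TRP1low 8 were higher and 0 lower, at a median of 1.57, with Socs2, an inhibitor of cytokine signalling, 3.95 higher and Lta, the cytokine lymphotoxin alpha, 2.30 higher. With K8, 9 were higher and 0 lower in TRP1high against TRP1low (median 1.91), led by Socs2 (4.79) and the survival gene Bcl2 (2.96), while Il2 itself was 10.7-fold lower. With M9, 0 were higher and 1, Il10, lower (median -0.08). For M9 against K8, 5.14% of all genes were called higher and 4.73% lower in TRP1high, and 7.67% and 7.43% in TRP1low. Between TCRs these shares were 7.37% and 5.58% with M9, and 10.6% and 8.35% with K8.

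The 21 measured genes of TGF-beta activation and response had 0 called higher and 2 lower for M9 against K8 in TRP1high, and 2 and 1 in TRP1low, at medians of -0.10 and -0.02. Itgae, the integrin chain CD103 induced by TGF-beta, was lower with M9 in both, at -1.75 and -4.36. Lrrc32 (GARP, which holds latent TGF-beta at the cell surface) was lower with M9 in TRP1high (-1.04) and higher in TRP1low (1.70). It was 1.91 higher in TRP1high than in TRP1low with M9 and 4.64 higher with K8, where Tgfb1 was 2.33-fold higher. Nrros, another anchor of latent TGF-beta, was lower in TRP1high with both peptides (-1.04 and -1.24). Of the list, 2 were higher and 1 lower in TRP1high with M9, and 3 were higher and 2 lower with K8, at medians of 0.31 and 0.27. The shares of all genes called higher and lower for M9 against K8 were 5.14% and 4.73% in TRP1high, and 7.67% and 7.43% in TRP1low. Between TCRs they were 7.37% and 5.58% with M9, and 10.6% and 8.35% with K8.

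The 7 interleukin 10 response genes had 0 called higher and 3 lower for M9 against K8 in TRP1high, among them Socs3 (-1.07) and Bcl3 (-1.04), and 1 and 1 in TRP1low (Nfil3, 1.79, and Bcl3, -2.19). Medians were 0.04 and 0.06, and between TCRs 1 was higher with M9 and 2 with K8 in TRP1high, with 0 lower, at medians of 0.52 and 0.39. The 14 measured other secreted cytokines had 2 higher and 2 lower for M9 against K8 in TRP1high, and 3 and 2 in TRP1low, at medians of -0.33 and 0.31. Csf1 (2.25) and Tgfb3 (1.92) were higher with M9 in TRP1high on few reads, and Lif (3.10) and Lta were higher in TRP1low. Ebi3, a subunit shared by heterodimeric cytokines, was lower with M9 in both (-1.12 and -2.05). Between TCRs, 2 were higher and 0 lower in TRP1high with M9, and 4 were higher, among them Lif (2.37), and 1 lower with K8, at medians of 0.14 and 0.24. Beside both lists, 5.14% of all genes were called higher and 4.73% lower for M9 against K8 in TRP1high, and 7.67% and 7.43% in TRP1low. Between TCRs these shares were 7.37% and 5.58% with M9, and 10.6% and 8.35% with K8.

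The position of the members on the chromosomes was not used to choose them. Il3 and Csf2 lie beside each other on chromosome 11, on the same strand, with starts 17.6 kb apart, and had their highest values in different libraries: Il3 was highest in TRP1high with M9 and Csf2 in TRP1low with K8. Acsl6, an acyl-CoA synthetase gene on the other side of Il3 with its start 36.5 kb away, was higher with M9 in both TCRs, by 3.47 in TRP1high and 2.21 in TRP1low on the log2 scale. It stood at 10.28, 6.82, 9.43 and 7.21 in TRP1high with M9, TRP1high with K8, TRP1low with M9 and TRP1low with K8, so that both M9 libraries were above both K8 libraries, as for 16.8% of all genes tested. P4ha2, a collagen prolyl hydroxylase, was 0.73 and 2.81 higher with M9, and Fnip1 was 0.38 and 1.32 higher. P4ha2 and Fnip1 also had both M9 libraries above both K8 libraries. Pdlim4 (-0.76 and -2.49) had few reads. Gm12222, a processed pseudogene that may share reads with its parent gene, so that its values are uncertain, was at 0 in both TRP1high libraries.

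Around Il2 on chromosome 3, Fgf2, which encodes fibroblast growth factor 2 and starts 222 kb away, was 5.84 higher with M9 in TRP1high and 2.94 higher in TRP1low. It stood at log2 9.48 in TRP1high with M9 and 3.65 in TRP1high with K8, and at 5.42 in TRP1low with M9 and 2.49 in TRP1low with K8. Cetn4, a centrin gene, was 1.097 and 2.75 higher and Bbs12, a chaperonin-like gene of the cilium, 0.20 and 0.54 higher. Fgf2 and Bbs12 had both M9 libraries above both K8 libraries, as Il2 did, and Cetn4 did not. The pseudogene Gm12583 was -0.69 and -0.25 apart. Around Il10, Fcmr, the Fc receptor for IgM, was lower with M9 in TRP1high (-2.79) and -0.29 apart in TRP1low, and Il24 was lower with M9 in TRP1high (-2.27) on few reads. Mapkapk2, Dyrk3, Eif2d and Rassf5 lay within 1 log2 unit in both peptide comparisons. Around Tgfb1, B9d2, Exosc5, Bckdha, Ccdc97, Dmac2, Hnrnpul1 and Axl also lay within 1 log2 unit in both, while Ceacam1 in TRP1high (-1.74) and Cyp2s1 in TRP1low (-2.17) were lower with M9. Hnrnpul1 was higher in TRP1high than in TRP1low with both peptides (1.09 and 1.27). No other measured gene starts within 250 kb of Ifng.

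**Figure D5:**
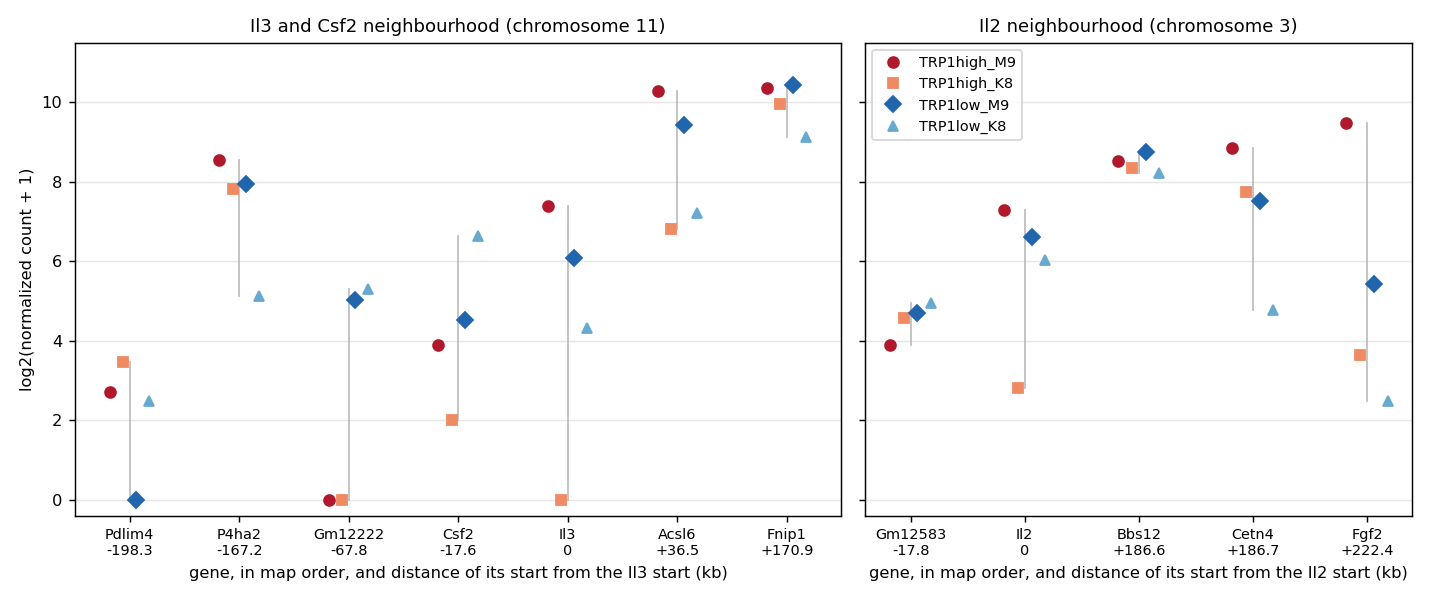
Log2(normalized count + 1) in the 4 libraries of the genes that start within 250 kb of Il3 (left) or Il2 (right) and reach 10 normalized counts in 1 library, in map order and with the distance of their starts below. Il3, Acsl6, P4ha2, Fnip1, Il2, Bbs12 and Fgf2 have both M9 libraries above both K8 libraries. Csf2 has its highest point in TRP1low with K8, and Fgf2 has its highest point (9.48) in TRP1high with M9.

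The genes most like each member were found by the root mean square distance between log2 values centred on each gene's mean over the 4 libraries, among 11551 protein-coding genes averaging 10 or more normalized counts. With 4 libraries this is a description. For Tgfb1 they were Hk2 (hexokinase 2, distance 0.02), Sec61g (a subunit of the protein translocation channel, 0.03) and Acot1 (0.04). For Ifng they were Mindy4 (0.10), Coro2b (0.16) and the transferrin gene Trf (0.21), all with few reads. For Il2 they were Prss2 (a trypsinogen gene, 0.29), Otx1 (0.44) and Trf (0.47), and for Il3 they included Calcb (0.99) and Il2 (1.11). For Csf2 they were Slc23a4 (0.30), the chemokine receptor gene Ccr8 (0.32) and Sh3bp4 (0.37). For Il10 they were the prostaglandin receptor gene Ptger3 (0.21), Blk (a kinase of the B lineage, 0.33) and Dnajc6 (0.40). Among the members, Ifng and Il2 were the closest pair (0.67) and Il3 and Il10 the farthest (3.98).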

How the data were processed

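Each deposited table gives a log2 value for every gene symbol, named a normalized count per the file headers. Undoing log2(x + 1) showed a fixed step at low values, and the authors' unit was therefore taken to be a count over a size factor, plus 1. Between 56.2% and 56.4% of values above 0 and under 50 lay within 0.01 of a whole read, so reads are estimates, and no count test was run. Per the submitters' processing notes, Salmon 0.8.2 and DESeq2 1.20.0 were used with mm10. Settings, filters, strand use and transcript annotation were not given in the sources used here.

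Groups came from sample titles. Among the rows, 20 carried a name that reads as a date and 1 symbol occurred more than once, and 16196 of 16338 rows (99.1%) had a symbol in GENCODE M21 (GRCm38), used for positions and exon lengths. The 6 members, the gene lists, the marker lists and the tests were chosen with earlier results of these data known. A gene was called where log2 values differed by at least 1 and 1 of the pair held at least 10 normalized counts. Counting intervals of ratios are 95% Clopper-Pearson intervals on reads rounded to whole reads, and those of levels are 95% exact Poisson intervals. limma 3.58.1 in R 4.3.3 fitted TCR and peptide (eBayes, no trend, Benjamini-Hochberg) and the code was tested on simulated data. Named genes were every member, the 3 nearest genes to each, neighbours within 250 kb, and up to 2 called genes per direction in each list and comparison, apart from some that are not reported here. Promoter sequences are from RefSeq, whose table held 5 of the 6 members (not Il10). Alternatives were other scalings, pseudocounts, count minimums and fold thresholds.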

Additional observations from a re-analysis of the deposited data

Results flagged for a closer look

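For 3 cytokine genes, one contrast went in opposite directions in the 2 groups it was measured in, with 1 library per group, so that the difference was not tested. For Csf2, M9 minus K8 was 1.89 in TRP1high and -2.11 in TRP1low, a difference of 4.01 on the log2 scale. The TRP1high value rests on 14 and 3 reads. For Il2, TRP1high minus TRP1low was 0.69 with M9 and -3.22 with K8, a difference of 3.91. For Il3, it was 1.296 with M9 and -4.33 with K8, a difference of 5.63, which includes the library with 0 reads.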

How the results depend on the processing

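No member's called difference changed direction under any alternative tried. Under the 3 other scalings, the pseudocount of 5 and the floor of 3 reads, the members called stayed the same in each comparison, except that Ifng was no longer called between TCRs with M9 after scaling by the median ratio or to equal totals. The sizes moved by over 1.5 times with the pseudocount of 5 for Il10 and Csf2 in M9 against K8 in TRP1high (-2.17 and 1.24), Il10 between TCRs with M9 (-2.06), Il3 between TCRs with K8 (-2.27, and -2.68 with the floor), Il3 and Il10 in the difference between the peptide differences (3.52 and -1.37), and Il3 and Il10 in the TCR effect of limma (-0.51 and -1.37). The peptide effect of limma for Csf2, -0.11 in the main setting, also moved by over 1.5 times with that pseudocount, away from 0. With a minimum of 50 normalized counts, 3 members were called in M9 against K8 in TRP1high, without Csf2 and Il10, and Il10 between TCRs with M9 and Il3 between TCRs with K8 also lost their calls, as did Il10 in the difference between the peptide differences. With a fold threshold of 4, 1 member was called in M9 against K8 in TRP1low (Csf2) and 1 in TRP1high against TRP1low with M9 (Il10), while Csf2 in M9 against K8 in TRP1high and Tgfb1 between TCRs with K8 also fell short of it. Over all genes, calls in M9 against K8 in TRP1high numbered 1589, against 2762 with no minimum, 768 with a minimum of 50 and 559 with a fold of 4. In TRP1low they numbered 2431, against 3930, 1338 and 945. Between TCRs they numbered 2085, against 3238, 1166 and 678, with M9, and 3046, against 4499, 1915 and 1198, with K8. The difference between the peptide differences was called for 3019 genes, against 4375, 1593 and 1225. limma with a mean-variance trend called 260 genes for the TCR and 5 for the peptide, none of them a member, against 0 and 0 without it, and the other alternatives called 0. The cause was not tested. Depth limits Il3, Csf2, Il2 and Il10, which had 6 reads or fewer in at least 1 library. Libraries could not be paired by replicate, because each group held 1 library and no replicate numbers. The additive limma model already takes the TCR as a block for the peptide and the peptide as a block for the TCR, and leaving out a library would leave that model no residual.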
